A study of Homo sapiens with 4 samples.

Results

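Doxorubicin (Doxo) and N,N-dimethyldoxorubicin (diMe-Doxo) differ by methylation of the amine on the sugar, and both were given to K562 cells at 10 µM for 4 h. K562 is an established human chronic myelogenous leukaemia line. The comparison rests on regions of accessible chromatin that had gained signal over untreated cells with both drugs, chosen as the regions with the same chromosome, start and end in the deposited Doxo and diMe-Doxo lists. There were 33140 such regions of 100205 listed for any drug, which made up 49.7% of the 66720 Doxo regions and 62.8% of the 52784 diMe-Doxo regions. Each list gave a normalized signal for 2 drug-treated libraries and for the same 2 untreated control libraries. The labels give 1 sample per treatment and do not say whether its 2 libraries came from separate cultures, so every p-value here measures only the spread between these libraries, which may be technical. Another anthracycline, aclarubicin (Acla), was given at 20 µM for 4 h, and because its dose differed, no level or fold with Acla was tested against the other drugs; the Acla list serves only to describe the shared regions.

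Anthracyclines slide a flat ring system between the base pairs of DNA and place an amino sugar in the minor groove. Doxorubicin traps topoisomerase II on cut DNA and so causes double-strand breaks, and it also drives histones off chromatin. Methylated at the amine, the drug is known to keep the loss of histones while causing few or no breaks. In ATAC-seq a transposase cuts and tags DNA that is not covered by nucleosomes, so accessible DNA gives more reads. The series addresses the part that histone eviction, as opposed to DNA breakage, has in what doxorubicin does.

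Each library's deposited signal could be turned back into whole reads. Median reads per shared region were 36 and 37 in the Doxo libraries and 76 and 62 in the diMe-Doxo libraries. Control reads were few, and 9897 shared regions stood at 1 read in each control library, the lowest value listed. Both lists were put on 1 scale by the mean of the 2 control columns over the shared regions, which was 3.75 in the Doxo list and 5.91 in the diMe-Doxo list. This is called the control-based scale below. TMM factors, which assume that most shared regions do not differ, also rescaled the libraries within a drug. Scaled signal per read went from 0.36 and 0.37 to 0.37 and 0.45 in the diMe-Doxo libraries. In the Doxo libraries it went from 0.89 and 0.88 to 0.82 and 0.76. The part of this in the calls was not tested. Between the drugs, TMM shifted Doxo relative to diMe-Doxo by -0.35 on the log2 scale, and by less at low signal because of the added 1. The overall direction therefore depends on the scale, whereas contrasts between groups of regions hardly do. All differences are log2(scaled signal + 1) with Doxo minus that with diMe-Doxo, and 1 pair of compounds was compared.

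Where a difference passed the test, signal was mostly higher with Doxo than with diMe-Doxo. Median scaled signal was 32.1 and 32.7 in the Doxo libraries and 27.0 and 22.7 in the diMe-Doxo libraries. The median difference was 0.26, and it was 0.18, 0.41, 0.23 and 0.46 in the 4 pairings of a Doxo with a diMe-Doxo library. By limma with Benjamini-Hochberg adjustment (limit 0.05), 9437 of 33140 regions were called higher with Doxo (28.5%) and 863 lower (2.6%). On the TMM scale 7595 were called higher (22.9%) and 3117 lower (9.41%), and the median difference was -0.067. No region was called in opposite directions, with 7595 called higher and 852 lower on both scales. Both Doxo libraries lay above both diMe-Doxo libraries at 45.2% of regions and under both at 13.7%.

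The distribution was lopsided on either scale, with a long arm towards Doxo. A difference of at least 1 log2 unit was present at 7763 regions (23.4%) and one of at least 2 at 3003 (9.06%). In the other direction 554 regions (1.67%) reached -1 and 3 reached -2. With TMM, 1839 regions reached 2 and 20 reached -2. The SD of the difference over regions was 0.93, beside a median standard error of 0.32. A shared region had to pass the authors' limits with both drugs, so regions where only 1 drug passed are not among the differences given here. The lowest authors' log2 fold over control among shared regions was 1.52 with Doxo and 1.5 with diMe-Doxo in the authors' deposited tables, and Doxo regions just outside, those without a diMe-Doxo listing, reached authors' folds of up to 7.77.

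**Figure D1:**
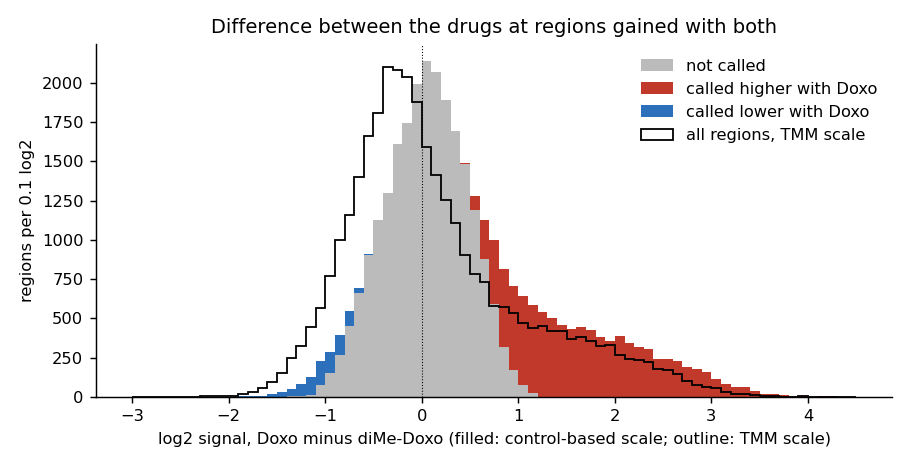
Number of shared regions (y axis, per 0.1 log2) by the difference between Doxo and diMe-Doxo (x axis, log2). Filled bars are on the control-based scale, coloured by limma call, and the black outline is the TMM scale; the fullest bin starts at 0 on the first and at -0.4 on the second, and the right arm reaches past 3 on both.

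For 22840 regions (68.9%) no difference was called, which does not show that the compounds acted alike there. The 95% interval of the difference lay wholly between -1 and 1 at 10161 regions (30.7%), or 10777 (32.5%) with TMM. The median half-width of that interval was 0.66, so differences under this size were mostly not resolved. At least 200 reads in every drug library were present at 578 regions, of which 552 were called higher with Doxo and 0 lower (526 and 1 with TMM), with a median difference of 1.44. This read minimum acts unequally on the drugs, since 1 read stood for 0.89 and 0.88 of scaled signal in the Doxo libraries and 0.36 and 0.37 in the diMe-Doxo libraries, so the share called is no result about deep regions. The 4 of these regions nearest to no difference show how narrow the interval can be. The closest, Even A on chromosome 1 at 2357866-2360871 (GRCh37), had scaled signals of 242 and 210 with Doxo and 220 and 226 with diMe-Doxo. The libraries of the drugs interleaved, and the difference was 0.02 with a 95% interval of -0.37 to 0.40. Even B, on chromosome 7 at 56559140-56562485, had 253 and 240 with Doxo and 267 and 211 with diMe-Doxo, an interval of -0.33 to 0.44. On the TMM scale its difference was -0.29 with a limma adjusted p of 0.0270, so its call depended on the scale.

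The other regions nearest 0 were Even C, on chromosome 7 at 136553183-136556200, with an interval of -0.31 to 0.50, and Even D, on chromosome 6 at 166580004-166583312, with an interval of -0.23 to 0.53. All 4 were over 3000 bp wide. Even D lay under 1 Mb from the region with the highest mean signal of all, Strong A on chromosome 6 at 166073615-166077201. Strong A had 953 and 1034 with Doxo and 410 and 365 with diMe-Doxo, a difference of 1.36 ± 0.18 (SE; limma adjusted p 3.46e-08).

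The 6 largest differences towards Doxo were between 16.2-fold and 20.3-fold, at regions with 1 to 3 reads in any control library. The highest, High A on chromosome 12 at 29943974-29947090, had scaled signals of 481 and 561 with Doxo and 27.7 and 22 with diMe-Doxo. The groups were far apart, with a difference of 4.34 ± 0.21 (SE; limma adjusted p 1.95e-17, or 8.91e-09 with TMM). High B, on chromosome 6 at 11490622-11491847, had 163 and 240 against 10.3 and 8.06, a difference of 4.30 ± 0.27. No diMe-Doxo library had a called peak at High B, whereas both Doxo libraries had one. High C, on chromosome 4 at 141208753-141211247, had 623 and 716 against 40.9 and 27.1, a difference of 4.29 ± 0.21.

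The other 3 of this group repeated the pattern on other chromosomes. High D lay on chromosome 19 at 12984259-12985821 (difference 4.15), High E on chromosome 9 at 34370925-34373077 (4.13) and High F on chromosome 17 at 56564619-56566206 (4.02). High E had no called peak in either diMe-Doxo library and a called peak in both Doxo libraries. Like every shared region, all 6 were by choice also listed as gained with diMe-Doxo. The authors' log2 folds over control there were between 2.04 and 3.72, beside 6.21 to 7.98 with Doxo. The authors' FDR with diMe-Doxo was 0.0514 at High B and 0.058 at High D. With Acla the authors' log2 folds were 4.56, 3.49, 4.20, 2.60 and 2.49 at High A to High E, and High F was not listed.

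Some of these regions stood out from their surroundings and others did not. With the named region left out, the median difference in the 1 Mb window of High B was -0.15 over 15 other shared regions, 1 of them called higher, and in that of High C -0.19 over 7, with 2 called higher. In the window of High F 5 of the 6 other regions were called higher, and their median was 2.32. These windows hold too few regions to set their shares against the 28.5% of all shared regions.

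Differences towards diMe-Doxo were smaller and rested on few Doxo reads. The lowest, Low A on chromosome 8 at 118488620-118490969, had scaled signals of 17.9 and 5.30 with Doxo and 66.8 and 49.1 with diMe-Doxo. Both diMe-Doxo libraries lay above both Doxo libraries, with a difference of -2.42 ± 0.39 (SE; limma adjusted p 2.38e-06). Low C, on chromosome 9 at 137644290-137645336, had 11.6 and 7.96 against 43.0 and 45.0, a difference of -2.08 ± 0.36. Low F, on chromosome 2 at 182365000-182367029, had 13.4 and 11.5 against 47.3 and 49.4, a difference of -1.88 ± 0.33. At Low C and Low F the libraries of a drug lay close together.

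The Doxo libraries disagreed at the other 4 regions of this group. Values without 1 Doxo library rest on the single one that is left, with the spread taken from the diMe-Doxo pair. Low A, with 20 and 6 Doxo reads, ran from -3.21 without Doxo replicate 1 to -1.63 without Doxo replicate 2 and stayed past the limit. Low B, on chromosome 11 at 21648401-21649467, held 30 reads in Doxo library 1 and 1 read in library 2. Its difference of -2.29 became -0.35, no longer past the limit, without Doxo replicate 2. Low E, on chromosome 11 at 110791084-110792703, held 7 and 44 Doxo reads, and its -1.89 became -0.66, also not past the limit, without Doxo replicate 1. Low D lay on chromosome 12 at 86387054-86387896 (6 and 20 Doxo reads, difference -1.92), and ran from -1.14 without Doxo replicate 1 to -2.69 without Doxo replicate 2, past the limit in both. With DESeq2 neither Low B nor Low E passed the limit. With Acla the authors' log2 folds at Low A to Low F were 5.5, 4.74, 4.52, 4.70, 4.10 and 5.01, beside 5.04, 4.29, 4.64, 4.53, 4.14 and 4.78 with diMe-Doxo and 2.71, 2.96, 2.46, 2.70, 2.67 and 2.81 with Doxo.

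**Figure D2:**
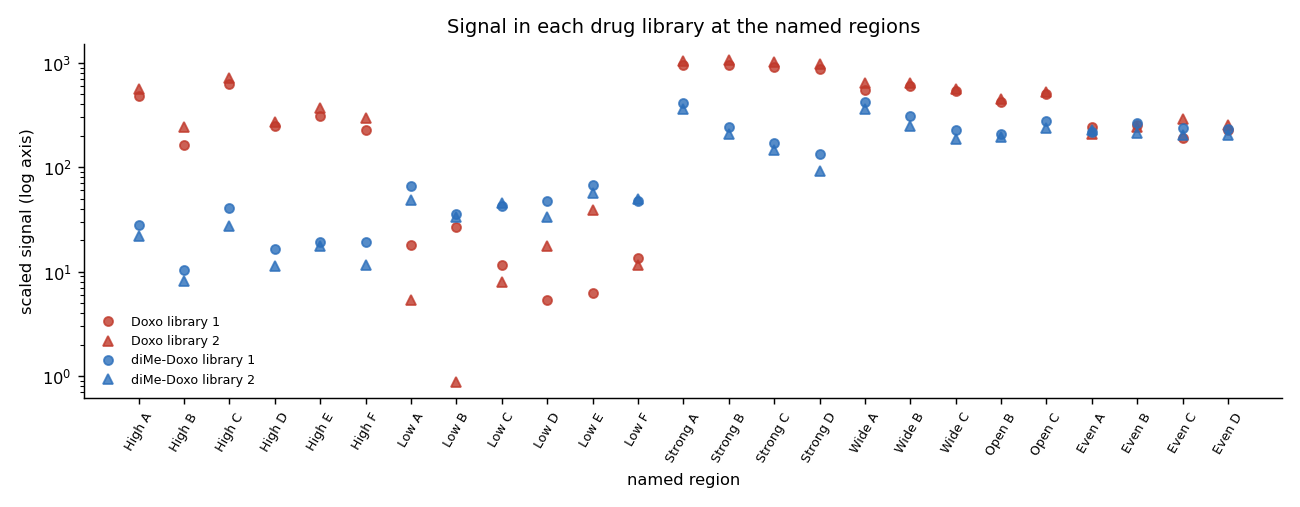
Scaled signal (y axis, log) of each drug library at the named regions (x axis); red is Doxo, blue diMe-Doxo, circles library 1 and triangles library 2. At High A to High F the Doxo points stand between 163 and 716 and the diMe-Doxo points between 8.06 and 40.9, at Low A to Low F the diMe-Doxo points are above, and at Even A to Even D the drugs overlap.

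The regions called lower had fewer control reads than those called higher. Their median control reads were 3, against 5 in the higher group and 4 over all shared regions, and 30.9% against 18.4% had 1 read in each control library. Both groups were chosen by the difference between the drug signals, so the drug signals and peaks given next describe that choice and are no separate result. Median scaled signals at the 863 regions were 20.5 and 20.3 with Doxo and 44.8 and 38.5 with diMe-Doxo. At the 9437 called higher they were 85.7 and 93.7 with Doxo and 29.9 and 24.9 with diMe-Doxo. Peaks in both diMe-Doxo libraries were called at 93.0% of the lower group and 65.9% of the higher group. Of the lower group 35.2% had an authors' FDR above 0.05 in the Doxo list, which holds regions by p-value rather than FDR, and of the higher group 22.5% had one in the diMe-Doxo list. The count of lower calls changed with the libraries kept, with 92 left without diMe-Doxo replicate 1, 324 without diMe-Doxo replicate 2, 1465 without Doxo replicate 1 and 1614 without Doxo replicate 2. Each of these fits leaves 1 drug with a single library, which is assumed to vary like the pair of the other drug. The SD over regions of the log2 ratio of library 2 to library 1 was 0.59 for Doxo and 0.35 for diMe-Doxo, and its part in these counts was not tested. On the control-based scale diMe-Doxo library 2 was lower than library 1 by a median of -0.24 log2, and Doxo library 2 differed from library 1 by 0.09.

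Nearly all regions called lower were Acla regions too. Of the 863, 99.9% were listed for Acla, beside 76.7% of those called higher and 86.7% of all shared regions. The authors' median log2 folds in the deposited tables were 2.59 with Doxo, 3.69 with diMe-Doxo and 3.76 with Acla where Doxo was lower, and 4.25, 2.46 and 2.55 where it was higher. The Doxo and diMe-Doxo folds come from the libraries that set the calls. The 3 lists share their controls, and the Acla dose differed. Split by the Acla list instead, the 4405 shared regions not listed for Acla had a median difference of 0.84 (library pairs 0.77 to 1.03) and the 28735 listed ones 0.19 (0.11 to 0.40). Of the former, 2202 were called higher (49.99%) and 1 lower (0.0227%). Of the latter, 7235 were called higher (25.2%) and 862 lower (3%), beside 28.5% and 2.6% of all shared regions.

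The difference grew with the signal that a region already had in untreated cells. At the 9897 regions with 1 read in each control library the median difference was 0.13 (library pairs 0.06 to 0.32). It was 0.23 with 3 to 5 control reads over both libraries, 0.38 with 6 to 10, 0.59 with 11 to 20, 0.84 with 21 to 50 and 1.04 at the 24 regions with over 50. The share called higher with Doxo was 17.5% in the first class and 66.5% and 79.2% in the last 2 classes, beside 28.5% of all shared regions. Lower calls made up 2.70% of the first class, 0.973% with 11 to 20 control reads and 4 of 496 with 21 to 50, beside 2.6% of all shared regions. With TMM the same classes ran from -0.19 to 0.69, so the sign in the lowest classes depended on the scale and the order did not. Treated signal moved along with the classes, from a median of 17.3 with Doxo and 15.1 with diMe-Doxo in the first class to 418 and 164 in the last, and its part in the trend was not tested. The choice of shared regions changed along the classes too: they made up 59.4% of the Doxo list in the first class, 16.5% at 21 to 50 control reads and 3.55% over 50, beside 57.7%, 90.8% and 96% of the diMe-Doxo list.

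Peaks called in the controls gave the same order, but they come from the same 2 libraries as the control reads. Median control reads were 3, 7 and 13 at regions with a peak in 0, 1 and 2 control libraries, so this order is no separate result. The median difference was 0.24 at 29012 regions with no control peak, 0.37 at 2781 with a peak in 1 control library and 0.56 at 1347 with a peak in both. The control libraries themselves were uneven, and 28.7% of the 520 regions with over 20 control reads had at most 2 reads in 1 of them. The median difference was 0.71 at those regions and 0.88 at the rest of the 520. By the control library with fewer reads, the medians were 0.23 at 1 read, 0.55 at 2, 0.76 at 3 to 5, 0.74 at 6 to 10 and 0.98 above 10.

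The regions with the most control reads were among the called ones. Wide B, on chromosome 8 at 56362283-56367167, held 46 and 47 control reads, the most of any shared region. Its scaled signal was 600 and 641 with Doxo and 307 and 249 with diMe-Doxo, a difference of 1.16 ± 0.18 (SE; limma adjusted p 1.57e-06). Open B, on chromosome 22 at 20135598-20137830, had 38 and 41 control reads and a difference of 1.11 ± 0.18. Open C, on chromosome 10 at 46991011-46993981, had 58 and 16 control reads and a difference of 0.995 ± 0.18. In all 3 both Doxo libraries lay above both diMe-Doxo libraries, and none was listed for Acla.

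**Figure D3:**
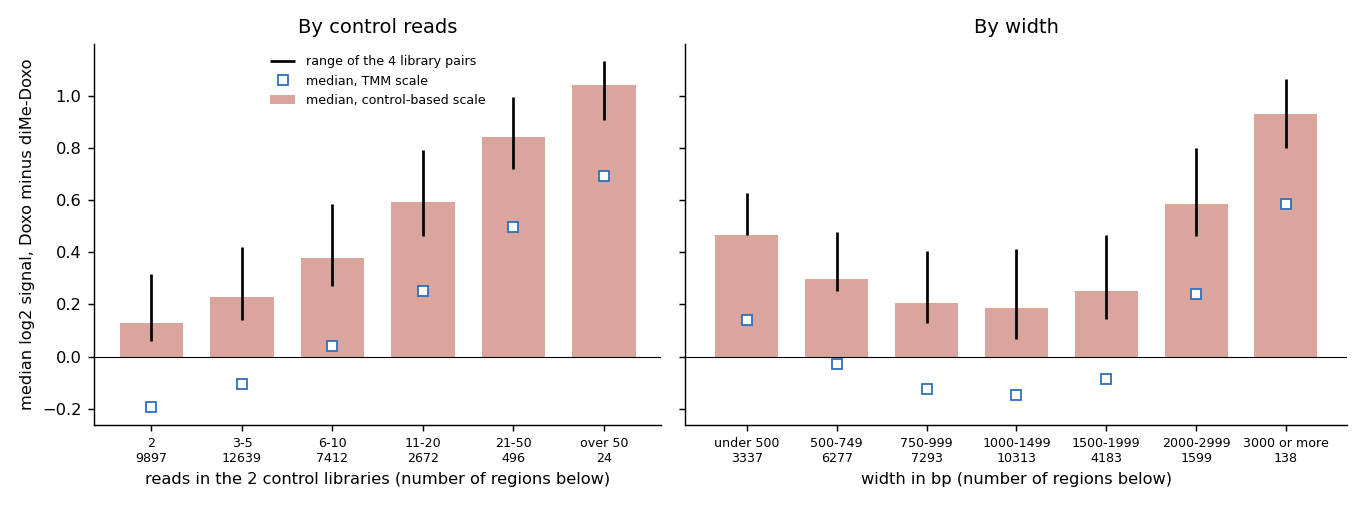
Median difference between Doxo and diMe-Doxo (y axis, log2) by control reads (left) and by width (right), with the number of regions under each class. Bars are the control-based scale, black lines the range over the 4 library pairs and squares the TMM scale; bars rise from 0.13 to 1.04 with control reads and are lowest, at 0.19, from 1000 to under 1500 bp.

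Across widths the difference was smallest in the middle classes and larger towards both ends, most of all at the widest regions. Width was split at 500, 750, 1000, 1500, 2000 and 3000 bp, and each class is named by its lower bound. The median was 0.47 under 500 bp, 0.30 from 500 bp, 0.20 from 750 bp and 0.19 from 1000 bp. It was 0.25 from 1500 bp, 0.58 from 2000 bp and 0.93 at the 138 regions of 3000 bp or more. The share called higher was 65.9% in the widest class and 24.1% from 750 bp, beside 28.5% over all. Lower calls were rarest among the narrowest regions, 3 of 3337, beside 2.6% over all. They were similarly frequent from 1500 bp, 226 of 4183 (5.40%), and from 2000 bp, 88 of 1599 (5.50%). At 3000 bp or more they were 2 of 138. Shared regions made up 21.3% of the Doxo list under 500 bp, 69.8% from 1500 bp and 49.6% from 3000 bp, beside 49.0%, 81.3% and 95.2% of the diMe-Doxo list.

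Control reads rise with width, from a median of 2 under 500 bp to 19.5 at 3000 bp or more, so width was also read within classes of control reads, where its order depended on the class. At regions with 1 read in each control, the median difference was 0.36 under 500 bp, -0.03 from 1000 bp and -0.15 at the 68 regions from 2000 to under 3000 bp. The library pairs of that last class ran from -0.35 to 0.14, so its sign was within the library spread. Of those 68, 14 were called lower with Doxo and 19 higher. At 11 to 20 control reads the order was the other way, with 0.51 from 500 bp, 0.76 from 2000 bp and 0.99 at 43 regions of 3000 bp or more. Within each width class from 750 to under 3000 bp the median difference increased with each class of control reads that held at least 20 regions. From 1500 to under 2000 bp, for example, it went from -0.11 to 0.83 over 5 classes. Under 500 bp it increased throughout as well, from 0.36 to 0.68 at 6 to 10 control reads. In the width class from 500 bp 1 step went the other way, from 0.53 to 0.51 between 6 to 10 and 11 to 20 control reads. In that from 3000 bp 1 step did so too, from 0.99 to 0.80 between 11 to 20 and 21 to 50.

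**Figure D4:**
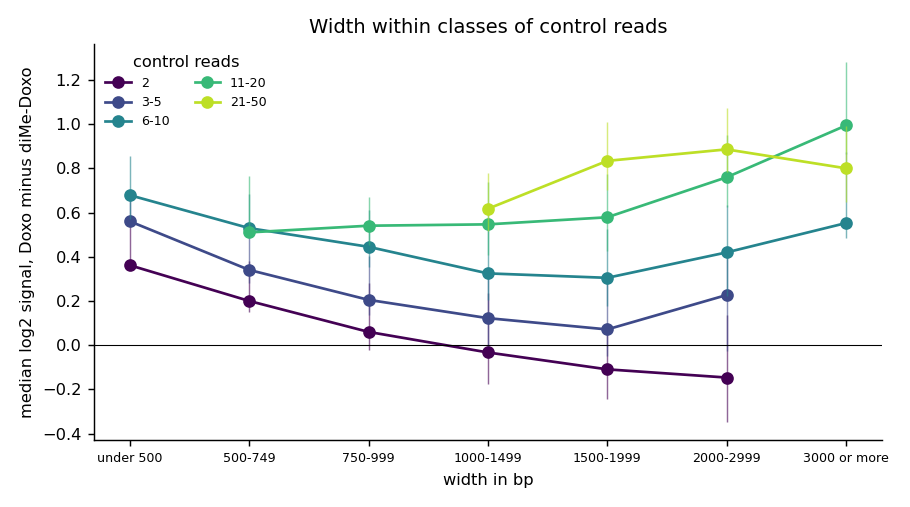
Median difference between Doxo and diMe-Doxo (y axis, log2, control-based scale) by width (x axis, bp) within classes of control reads (colours), for classes of at least 20 regions; vertical lines are the range over the 4 library pairs. With 2 control reads the line falls from 0.36 to -0.15, and with 11-20 it climbs from 0.51 to 0.99.

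Both trends reversed under a limit on drug signal. Among regions with a mean scaled signal of at least 40 over the drug libraries, the contrast of over 20 against 2 control reads was -0.62 instead of 0.72. The contrast of 2000 bp or more against 750 to under 1000 bp was -0.49 instead of 0.41. That limit is set on the signals being compared, and its part in the reversal was not tested.

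The widest shared region differed least among those named for width. Wide A, 5231 bp on chromosome 4 at 100570438-100575669, had 550 and 647 with Doxo and 418 and 364 with diMe-Doxo, a difference of 0.61 ± 0.18 (SE; limma adjusted p 0.00683). Without Doxo replicate 1 or 2, with 1 Doxo library left in the fit, it was 0.73 and 0.49 and did not pass the limit. Wide C, on chromosome 11 at 126303749-126308089, had 535 and 565 against 226 and 186, a difference of 1.42 ± 0.18. Further regions with very high signal lay on chromosome 6 at 137242494-137245708 (Strong B, difference 2.16), on chromosome 7 at 150811494-150814660 (Strong C, 2.59) and on chromosome 6 at 7229208-7232363 (Strong D, 3.03). Strong B held 44 reads in control library 1 and 1 in library 2.

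By locus, shared regions on the gene-dense chromosomes 19, 17 and 22 had the highest median differences, and those on 4, 8 and 3 the lowest. On chromosome 19 the median difference was 1.20 (library pairs 1.09 to 1.35). There 367 of 616 regions were called higher with Doxo (59.6%) and 0 lower, beside 28.5% and 2.6% of all shared regions. With TMM 3 were called lower and the median was 0.87. Chromosomes 17 and 22 followed with 0.79 and 0.76. Chromosome 4 had 0.15 (library pairs 0.00 to 0.40), with 460 of 2050 called higher (22.4%) and 77 lower (3.76%). Chromosomes 8 and 3 had 0.16 and 0.18. All 23 chromosomes with at least 20 shared regions had a median above 0 on the control-based scale and 11 on the TMM scale.

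The contrast between chromosomes does not rest on the scale between the lists. Relative to all shared regions, the median log2 signal on chromosome 19 was 0.67 and 0.66 in the Doxo libraries and -0.33 and -0.32 in the diMe-Doxo libraries. The drugs' libraries did not overlap, and the exact two-sided permutation test over the 4 libraries gave p = 0.333, the smallest that 2 against 2 can give. Chromosome 19 exceeded all shared regions by 0.84 among regions with 1 read in each control and by 1.02 among those with 11 to 20. By width its excess ran from 0.66 from 750 bp to 1.56 from 2000 bp. The choice of shared regions also differed, since they made up 24.6% of the Doxo list and 89.9% of the diMe-Doxo list on chromosome 19, beside 59.9% and 58.0% on chromosome 4.

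Regions near chromosome ends differed more than those further in. The median difference was 0.82 within 1 Mb of the outermost listed region of a chromosome (1283 regions, library pairs 0.76 to 1.01), 0.55 at 1-2 Mb and 0.29 at 2-5 Mb. The short-arm side of chromosomes 13, 14, 15, 21 and 22 was left out. Beyond 5 Mb the median lay between 0.21 and 0.25 in every class. Within 1 Mb 51.6% were called higher with Doxo, beside 28.5% of all shared regions. The median was higher within 1 Mb than at 10 Mb or more on all 21 chromosomes with at least 20 regions in both classes. The gap was widest on chromosome 13 (1.88 against 0.24) and smallest on chromosome 20 (0.43 against 0.40). Without chromosomes 16, 17, 19 and 22 the medians were 0.72 within 1 Mb and 0.47 at 1-2 Mb. Control reads were slightly higher near the ends, with a median of 5 within 1 Mb and 4 at 10-20 Mb, and their part was not tested.

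**Figure D5:**
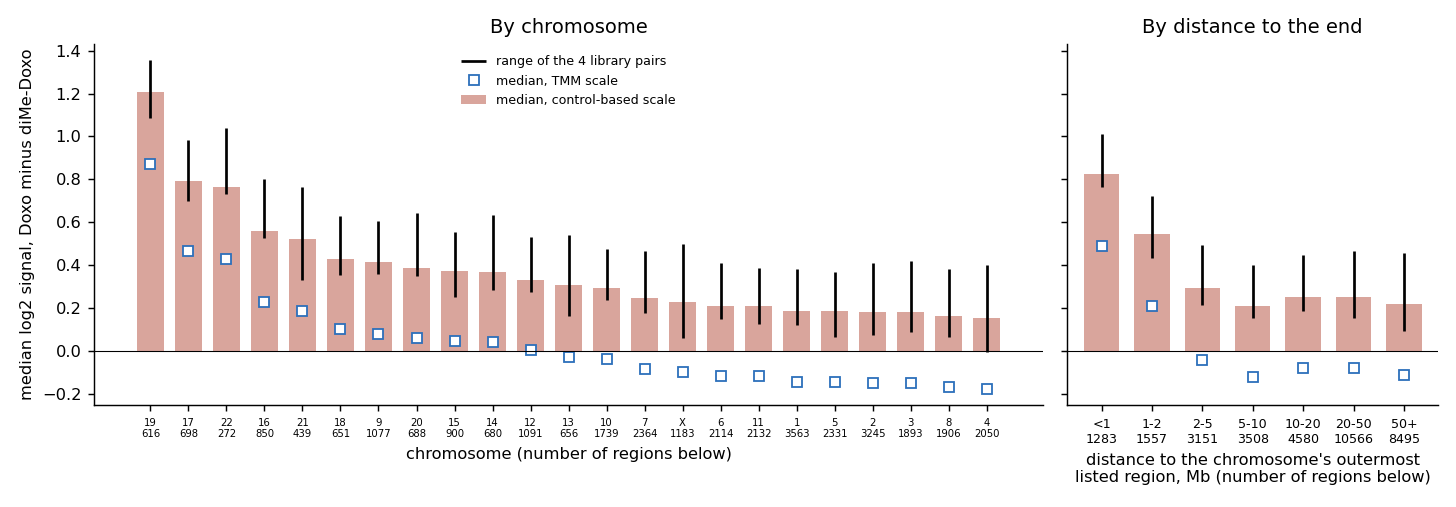
Median difference between Doxo and diMe-Doxo (y axis, log2) by chromosome (left, ordered) and by distance to the chromosome's outermost listed region (right, Mb), with the number of regions under each class. Bars are the control-based scale, black lines the range over the 4 library pairs and squares the TMM scale; chromosome 19 stands at 1.20, chromosome 4 at 0.15 and the outermost 1 Mb at 0.82.

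Medians of 1 Mb windows ranged more widely than those of whole chromosomes. Of 455 windows of 1 Mb with at least 20 shared regions, 346 had a median difference above 0 and 109 under 0 (180 and 275 with TMM). Every library pair was above 0 in 261 windows and under 0 in 20. The windows' medians in Doxo library 1 minus diMe-Doxo library 1 and in the second libraries, which share no treated library, had Pearson's r of 0.91 and Spearman's rho of 0.83 over 455 windows. For single regions r was 0.76 and rho 0.67 over 33140. The 2 sets of libraries share region widths and the scale between lists, and windows and regions are not independent replicates.

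The window with the highest median was on chromosome 7 at 5-6 Mb, where the median was 2.60. All 23 shared regions in it were called higher with Doxo, beside 28.5% of all shared regions. The next window, at 6-7 Mb, had 2.43 over 19 regions, whereas the one before, at 4-5 Mb, had 0.40 over 36. On chromosome 19 at 2-3 Mb 22 of 23 regions were called higher (median 2.33), and its neighbours had 1.95 and 1.47. On chromosome 16 at 2-3 Mb 20 of 21 were called higher (2.16), beside 0.53 and 1.56 in the windows before and after. Chromosome 4, with the lowest median of all, still had a window at 2.03. The highest and lowest windows were picked by their medians, so the calls in them follow in part from that choice.

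The lowest windows were closer to 0 and less uniform. On chromosome 2 at 19-20 Mb the median was -0.58 (library pairs -0.72 to -0.23). Of its 34 regions 10 were called lower with Doxo and 1 higher, beside 2.6% and 28.5% of all shared regions. The next window, at 20-21 Mb, had 0.44 over 61 regions with 22 called higher (36.1%). On chromosome 3 at 27-28 Mb the median was -0.38 over 23 regions, with 2 called lower and 1 higher, and the following window had -0.35 over 12. On chromosome 1 at 241-242 Mb it was -0.32 over 24 regions, with library pairs from -0.68 to 0.09, so its sign was within the library spread.

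Neighbouring shared regions had similar differences, and less so with distance. Across 2404 pairs of neighbours under 1 kb apart Pearson's r of the differences was 0.76, and it was 0.56 across 8219 pairs 5-20 kb apart and 0.32 across 7324 pairs 100 kb to 1 Mb apart. Neighbours share their libraries. With the difference of 1 neighbour taken from the first libraries and that of the other from the second, r was 0.68, 0.49 and 0.29.

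The median difference was highest where peaks had been called with Doxo alone and lowest where they had been called with diMe-Doxo alone. At 1062 shared regions with a peak in both Doxo libraries and in no diMe-Doxo library the median difference was 2.14, with 81.9% called higher. At 3788 regions with a peak in both diMe-Doxo libraries and in no Doxo library it was -0.16, with 7.63% called lower and 8.34% higher, beside 2.6% and 28.5% of all shared regions. Peaks and signal come from the same reads, and the diMe-Doxo libraries had more reads per region.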

How the data were processed

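ATAC-seq of K562 cells was read from the deposited lists, 1 per drug. Regions were compared with DiffBind on GRCh37, per the submitters' processing notes; which aligner, peak caller and normalization were used is not given in the sources. The lists have no header, so columns were identified from their values. The deposited log2 means and log2 folds, p-values and FDRs, the count of libraries with a called peak and the normalized signal are the authors'. Each deposited signal was a whole number of reads times a library factor (100% of values whole within 0.1 reads), from which reads were recovered. Start coordinates are printed as listed.

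Differences were tested with limma 3.58.1 (trend, log2(scaled signal + 1)) over all 33140 shared regions. Data were also simulated at 33140 regions, of which 100 were changed 4-fold, 100 were changed 2-fold and the rest were equal. There limma found 94% of the 4-fold and 17% of the 2-fold changes, and 4.31% of its calls were false. With so few changed regions the adjusted limit was stricter than in the data. The simulated libraries of both drugs were also given the same spread and no offset from each other. In the data the spread between libraries was wider for Doxo than for diMe-Doxo. The 4.31% is therefore not the share of false calls in the data. Alternatives used edgeR 4.0.16 (quasi-likelihood, TMM), DESeq2 1.42.0, R 4.3.3 and Python 3.11.15. Named regions are the 6 highest and 6 lowest differences called on both scales (at least 50 reads in both libraries of the higher drug, no overlap), the 4 with most signal, the 3 widest, the 3 with most control reads, the 4 nearest 0 (at least 200 reads in each drug library), and the 3 highest and lowest windows and chromosomes. Medians carry the range over the 4 library pairs; intervals and p-values cover library spread only. Members and rules were chosen with earlier results of these data known, and the classes by chromosome end and by the lower control library were added after seeing the data. Genes were not assigned, since no annotation of GRCh37 was used here. Full library depth is unknown.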

Additional observations from a re-analysis of the deposited data

How the results depend on the processing

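No paired analysis was possible because the library columns carry no replicate numbers that the labels give. The scale between the lists decided the overall sign: the median difference was 0.26 on the control-based scale, -0.067 with TMM and -0.087 with median-of-ratios factors. Regions called lower numbered 863, and 3117 with TMM, 3422 with median-of-ratios factors, 3557 with edgeR and TMM, 255 with DESeq2, 335 at a mean scaled signal of at least 40, and 243 under stricter list limits (FDR 0.01 and log2 fold 2, in both lists). Leaving out 1 library, with the lone one assumed to vary like the other drug's pair, gave 92 to 1614. Regions called higher stayed between 7148 and 9663 except under the stricter list limits, which kept 11091 regions and 4055 higher calls; leaving out 1 library gave 7484 to 9553. With TMM, 852 of the 863 lower calls were kept. The signal limit and the stricter list limits tested fewer than the 33140 regions, so their smaller counts of calls do not show smaller shares.

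Among contrasts, chromosome 19 minus all (0.94) was 1.28 with the signal limit, 0.62 with the stricter list limits, 0.86 with a pseudocount of 5, and 0.87 to 0.95 without 1 library. Chromosome ends (0.58) gave 0.86 with the signal limit, 0.51 with a pseudocount of 5 and 0.50 without chromosomes 16, 17, 19 and 22. Over 20 minus 2 control reads (0.72) gave 0.70 with TMM or median-of-ratios factors, 0.62 with the stricter list limits -0.62 with the signal limit, and 0.67 to 0.72 without 1 library. Regions of 2000 bp or more minus 750 to under 1000 bp (0.41) gave 0.26 and -0.49 under the same limits, and 0.36 to 0.42 without 1 library. The signal limit is set on the compared values themselves; the cause of these changes was not tested. The median was 0.86 with the signal limit. Even A and Even B were not called on the control-based scale. Even A was called lower with median-of-ratios factors (-0.35) and with edgeR and TMM (-0.33). Even B was called lower with TMM (-0.29), median-of-ratios factors (-0.31) and edgeR with TMM (-0.29). With TMM in limma, Even A (-0.33), Even C (-0.25) and Even D (-0.20) were also negative but were not called. Of 342 values at named regions under 14 alternatives, 331 kept their side of the limit. High and Low regions had been picked as called on both scales and as extremes, so much of this count was set by the choice. The 26 names also cover 25 distinct regions, so 1 was counted under 2 names. The count is no measure of how firm calls are over all shared regions. Small differences were poorly resolved, with a median half-width of the 95% interval of 0.66 log2. The simulation found 17% of 2-fold changes, with 100 regions changed 2-fold and 100 changed 4-fold. Far more regions were called in the data, which loosens the adjusted limit, so that 17% does not give the power of this comparison.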
